A study of Mus musculus with 18 samples.

Results

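The respiratory genes described here are the nuclear-encoded subunits of complexes II to V of the mitochondrial respiratory chain, with the electron carrier cytochrome c. They were taken by gene symbol as every row named Sdha to Sdhd, Uqcr, Cyc1, Cycs, Cyct, Cox4 to Cox8 or Atp5, with whatever follows. The rule found 50 genes of 20979 with a unique symbol in the table: 4 of complex II, 9 of complex III, 2 cytochromes c, 18 of complex IV and 17 of complex V. Cox7a2l, a factor that joins respiratory complexes into supercomplexes, and Atp5s, which is not a subunit of the synthase, match the symbols and are counted as members. Of the 50, 47 had a mean of at least 1 FPKM (fragments per kilobase of transcript, scaled by the fragments of the library, so that levels of different genes are per length) and were tested. Cox4i2, Cox6a2 and Cox8b were not.

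RNA was sequenced from whole testis of ICR mice, an outbred strain, at 10 weeks of age, in 18 libraries. The 6 groups of 3 libraries were AOS alone at 10 mg/kg (AOS), the same AOS dose on a high-fat diet (HFD-AOS), the diet with an FMT labelled AOS 10 mg/kg (HFD-AOSFMT), the diet with an FMT labelled control (HFD-conFMT), the diet alone (HFD), and untreated control (control). The labels spell out neither AOS nor FMT and do not describe the donors. FMT usually stands for faecal microbiota transplantation. The study asked what FMT does to a testis damaged by the high-fat diet. The labels do not tie replicates to separate animals. A p-value here therefore reflects the scatter of these libraries, part of which may be technical.

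The respiratory chain passes electrons from NADH and succinate to oxygen and stores the energy as a proton gradient, which complex V, the ATP synthase, uses to make ATP. Complex II oxidises succinate, complex III moves the electrons from ubiquinol to cytochrome c, and complex IV, cytochrome c oxidase, hands them to oxygen. Several small subunits of complex IV, and cytochrome c itself, exist as tissue isoforms encoded by separate genes. In the testis, male germ cells use their own isoforms from meiosis onward, and sperm carry them in the mitochondria of the midpiece. A few subunits of complexes III, IV and V are encoded by mitochondrial DNA. None of the 6 such genes looked for was in the table, and they were not analysed here.

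Per library, the FPKM of all genes added up to 588081 to 637005. The absolute depth is unknown. Library 1 of HFD-AOS stood apart. It held the lowest value of the 18 libraries for 19 of the 47 members tested, against 16.4% of all genes tested, and the highest for 5. As a check of the tissue label, 8 elongating spermatid markers, led by protamines, summed to between 43963 and 65111 FPKM. The 6 epididymis markers, of which Lcn8 was at 0 throughout, summed to under 4 FPKM in every AOS, HFD-AOS, HFD-AOSFMT and HFD library, but to 111 in HFD-conFMT library 2 and 169 in control library 3.

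The testis and somatic isoforms are separate genes whose sequences tell them apart. Testis cytochrome c (Cyct) lies at chr2:76353942-76360450 and somatic cytochrome c (Cycs) at chr6:50562563-50566538, both on the minus strand of GRCm38, the assembly of the mm10 genome. Their coding sequences are both 318 bases long and 76.8% identical in a global alignment, with no identical run longer than 14 bases. The first 150 coding bases from the GENCODE annotation are printed 5′ to 3′, because the level of each gene rests on reads that can be placed on one or the other. Capitals mark the 30 positions at which they differ.
Cyct: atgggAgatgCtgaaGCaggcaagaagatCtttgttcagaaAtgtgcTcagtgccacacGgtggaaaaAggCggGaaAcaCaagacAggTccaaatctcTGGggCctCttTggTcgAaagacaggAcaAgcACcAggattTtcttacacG
Cycs: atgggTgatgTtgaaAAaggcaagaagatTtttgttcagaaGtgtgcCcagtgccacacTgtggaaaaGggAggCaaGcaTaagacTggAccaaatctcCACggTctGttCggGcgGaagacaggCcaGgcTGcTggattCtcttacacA
The other pairs are less alike. Coding identity was 52.5% between Cox6b2 and Cox6b1, 64.8% between Cox7b2 and Cox7b and 51.5% between Cox8c and Cox8a. Processed pseudogenes of many respiratory genes exist, and no source used here says how reads were split between a gene and such copies.

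The promoters differ as well. The 120 bases before the start of 2 pairs are printed 5′ to 3′ on the gene's strand from RefSeq (GRCm38.p6), since these pairs differ in level as described further on. Cyct is at chr2:76360454-76360573, minus strand, Cycs at chr6:50566570-50566689, minus strand, Cox7b2 at chr5:71548206-71548325, minus strand, and Cox7b at chrX:106015580-106015699, plus strand. Capitals mark 4 motifs, searched on both strands: the short CRE motif TGACG (from the cyclic AMP response element, CRE), the short NRF1 motif GCATGCGC, the CCAAT box, and the ETS motif CCGGAAG.
Cyct: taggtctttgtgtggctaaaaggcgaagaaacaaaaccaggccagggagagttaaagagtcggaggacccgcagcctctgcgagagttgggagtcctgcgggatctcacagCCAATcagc
Cycs: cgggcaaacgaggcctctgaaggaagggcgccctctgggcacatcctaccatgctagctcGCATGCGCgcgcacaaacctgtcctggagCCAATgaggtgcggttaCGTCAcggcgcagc
Cox7b2: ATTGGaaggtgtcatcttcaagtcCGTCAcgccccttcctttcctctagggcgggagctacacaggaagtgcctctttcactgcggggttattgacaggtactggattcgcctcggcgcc
Cox7b: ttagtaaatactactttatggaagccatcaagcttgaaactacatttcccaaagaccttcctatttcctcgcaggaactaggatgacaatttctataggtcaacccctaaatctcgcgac
In the full 250 bases before the start, the Cycs window held a whole CRE (TGACGTCA, which contains the short CRE motif on both strands) and the short NRF1 motif, from the nuclear respiratory factor that drives many respiratory genes. A CRE occurred in 1.55% of all 32851 RefSeq promoter windows of this length, and the short NRF1 motif in 2.26%. Of these motifs the Cyct window held the CCAAT box alone, which occurred in 33.8% of the windows, and so did the Cox7b window. The Cox7b2 window held the short CRE motif and 3 CCAAT boxes. A match is a description of letters and not a binding site. Over the 36 members with a RefSeq window, the short NRF1 motif occurred in 6 (16.7%, against 2.56% of all 27025 genes), namely Atp5g2, Atp5k, Atp5l, Cox6a1, Cycs and Sdhb. A longer NRF1 motif of 10 letters, which contains the short one, occurred in 3 (8.33%, against 0.877%). The ETS motif occurred in 9 (25%, against 7.83%), the CCAAT box in 21 (58.3%, against 37.5%) and the short CRE motif in 10 (27.8%, against 19.8%). A whole CRE occurred in 2 (5.56%, against 1.77%). The GC box GGGGCGGGG, also searched, occurred in 4 (11.1%, against 11.8%) and was the only motif searched that was not above the share of all genes.

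All 50 members together held between 1.06% and 1.21% of the summed FPKM of a library. Their summed level averaged 6982 ± 178 FPKM in AOS, 7045 ± 282 FPKM in HFD-AOS, 7295 ± 196 FPKM in HFD-AOSFMT, 7442 ± 224 FPKM in HFD-conFMT, 6807 ± 188 FPKM in HFD and 6489 ± 131 FPKM in control libraries (SD, n = 3 each). The group means ran from HFD-conFMT at the top through HFD-AOSFMT, HFD-AOS, AOS and HFD down to control. Neighbours in that order differed by less than the larger of their SDs, except HFD and control. Library sums differed too. As a share of them, members averaged 1.19 ± 0.027% in HFD-conFMT, 1.18 ± 0.027% in HFD-AOSFMT and 1.14 ± 0.012% in AOS libraries. The share was 1.13 ± 0.062% in HFD-AOS, 1.12 ± 0.010% in HFD and 1.09 ± 0.0095% in control libraries (SD, n = 3 each). On that scale AOS and HFD-AOS changed places. Complex IV held the highest summed level, with 3065 to 3772 FPKM per library, followed by complex V with 2079.7 to 2545, complex III with 831 to 980.1 and complex II with 144 to 183 FPKM. Levels differed far more between members than between groups, as the plot of levels shows.

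**Figure D1:**
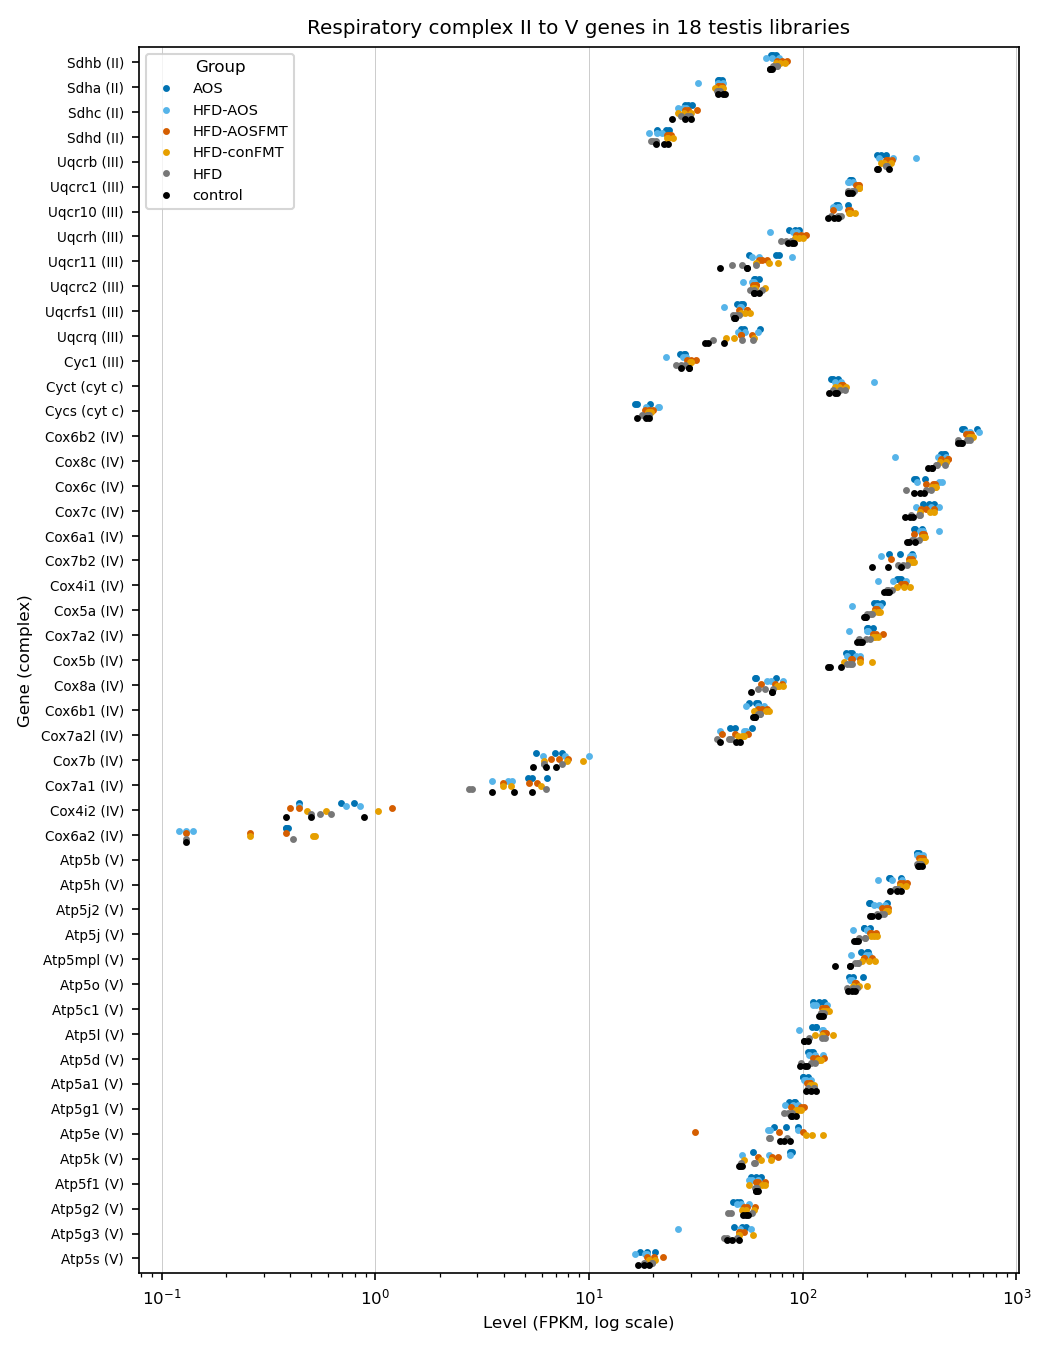
Level of each member on a log axis (FPKM), one row per gene from complex II at the top to complex V at the bottom, one point per library, coloured by group. Cox8b, listed at 0 in every library, and single values at 0 of Cox6a2 are not drawn. Members span from under 1 FPKM to 669 FPKM, and the points of a gene mostly lie close together.

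Complex II, which is built of Sdha (the flavoprotein), Sdhb (the iron-sulphur protein) and the membrane anchors Sdhc and Sdhd, was the lowest of the 4 complexes by its most abundant subunit. Sdhb averaged 74.9 FPKM over the 18 libraries, Sdha 40.5, Sdhc 28.4 and Sdhd 22.1. By group, Sdhb averaged 72.9 ± 1.67 FPKM in AOS, 72.2 ± 5.16 FPKM in HFD-AOS, 80.2 ± 4.28 FPKM in HFD-AOSFMT, 78.7 ± 3.597 FPKM in HFD-conFMT, 74.5 ± 2.01 FPKM in HFD and 70.9 ± 0.918 FPKM in control libraries (SD, n = 3 each), highest in both FMT groups.

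In complex III, Uqcrb (a small ubiquinone-binding subunit) averaged 248 FPKM, Uqcrc1 (a core subunit) 172 and Uqcr10 (a small subunit) 151. The second core subunit, Uqcrc2, averaged 59.8 FPKM, the Rieske iron-sulphur protein Uqcrfs1 50.6, and the cytochrome-bearing Cyc1 28.2. The Rieske protein and Cyc1, which carry redox centres, were thus below the 3 most abundant subunits. Uqcr11 and Uqcrq, both small accessory subunits, had the largest coefficients of variation of complex III over the 18 libraries, at 18.96% and 16.7%.

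Complex IV held the most abundant members. Cox6b2 averaged 589.7 FPKM, rank 110 of all genes by mean, followed by Cox8c at 433 and Cox6c at 380.1 FPKM. The first 2 are testis isoforms, while Cox6c is a small subunit with no testis isoform among the members. Next came Cox7c at 368, Cox6a1 at 350.4, Cox7b2 at 291 and Cox4i1 at 273 FPKM. By group, Cox6c averaged 348 ± 22.5 FPKM in AOS, 408 ± 58 FPKM in HFD-AOS, 400.1 ± 19.3 FPKM in HFD-AOSFMT, 414 ± 9.52 FPKM in HFD-conFMT, 359 ± 49.96 FPKM in HFD and 352 ± 18.01 FPKM in control libraries (SD, n = 3 each). HFD-conFMT lay above AOS, HFD and control without overlap, HFD-AOSFMT above AOS and control, and every other pair of groups overlapped.

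In complex V, Atp5b, the catalytic beta subunit, averaged 354 FPKM, with values from 343 to 374 FPKM and a coefficient of variation of 2.57%, the smallest of all members tested. Atp5h and Atp5j2, subunits of the stalk and the membrane part, averaged 277 and 231 FPKM. Atp5a1, the alpha subunit that alternates with beta in the catalytic head, averaged 107 FPKM. The c subunit of the rotor is encoded by 3 genes that give the same mature protein, and Atp5g1, Atp5g2 and Atp5g3 averaged 91, 52.7 and 48.8 FPKM. Atp5e, the epsilon subunit, had the largest coefficient of variation of all members tested, 24.3%, with values from 31.3 to 124 FPKM.

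Each of the 4 testis isoforms had a higher FPKM than its somatic counterpart in every library. FPKM is per length, so these ratios depend on the transcript lengths used, which are not known. Annotated lengths were 655 bases for Cyct and 3123 for Cycs, and 542 for Cox7b2 and 1001 for Cox7b. They were 435 for Cox6b2 and 486 for Cox6b1, and 458 for Cox8c and 550 for Cox8a. Testis cytochrome c, Cyct, which replaces Cycs in spermatocytes and later germ cells, measured 139, 146 and 135 FPKM in AOS, 215, 152 and 142 in HFD-AOS, 155, 152 and 150.5 in HFD-AOSFMT, 142, 159 and 148 in HFD-conFMT, 149.9, 158 and 138 in HFD and 142, 145 and 133 in control libraries. Somatic Cycs, which also takes part in apoptosis, measured 16.4, 19.2 and 16.8 FPKM in AOS, 21, 21.3 and 18.4 in HFD-AOS, 18.3, 19.1 and 19.9 in HFD-AOSFMT, 19.1, 18.9 and 19.5 in HFD-conFMT, 17.7, 18.7 and 19.1 in HFD and 19.02, 16.8 and 18.6 in control libraries. The median ratio of Cyct to Cycs over the 18 libraries was 7.85 (range 7.11 to 10.2), and the highest ratio came from HFD-AOS library 1, where Cyct was far above every other library.

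Cox6b2, the testis form of the subunit that faces the intermembrane space where cytochrome c binds, measured 557, 654 and 566 FPKM in AOS, 669, 604 and 584 in HFD-AOS, 578, 599 and 614 in HFD-AOSFMT, 625, 602 and 605 in HFD-conFMT, 603, 534 and 587 in HFD and 549.7, 530.4 and 555 in control libraries. Its somatic form Cox6b1 measured 61.4, 60.5 and 56.2 FPKM in AOS, 54.5, 66.1 and 61.9 in HFD-AOS, 68.05, 64.6 and 61.5 in HFD-AOSFMT, 59.4, 67.5 and 69.8 in HFD-conFMT, 63, 63.2 and 61.7 in HFD and 58.2, 59.9 and 59.7 in control libraries. The ratio had a median of 9.36 (range 8.45 to 12.3), and the ranges of both genes over the 18 libraries lay far apart.

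Cox7b2 measured 284, 325 and 255 FPKM in AOS, 233, 329 and 318 in HFD-AOS, 259, 315 and 325 in HFD-AOSFMT, 315, 333 and 324 in HFD-conFMT, 293, 307 and 279.8 in HFD and 287, 252 and 211 in control libraries. Cox7b, the somatic form on the X chromosome, measured 5.65, 6.95 and 7.45 FPKM in AOS, 6.1, 7.72 and 9.98 in HFD-AOS, 6.66, 7.26 and 7.96 in HFD-AOSFMT, 6.17, 9.38 and 7.9 in HFD-conFMT, 6.12, 7.48 and 6.16 in HFD and 5.46, 6.3 and 6.98 in control libraries. This pair had the widest gap, with a median ratio of 41.02 (range 30.2 to 52.6). The X chromosome is silenced in meiotic germ cells, as background, and Cox7b was the lowest of the 4 somatic forms.

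Cox8c measured 442, 458 and 461 FPKM in AOS, 269, 429 and 466 in HFD-AOS, 479, 478 and 442 in HFD-AOSFMT, 438, 469 and 469.8 in HFD-conFMT, 426, 465 and 419.8 in HFD and 388, 402 and 401 in control libraries. Cox8a, the somatic form, measured 60.01, 74.6 and 60.3 FPKM in AOS, 80.5, 70.97 and 68.3 in HFD-AOS, 63.96, 80.3 and 74.4 in HFD-AOSFMT, 76.2, 80.99 and 77.6 in HFD-conFMT, 72.9, 66.7 and 61.7 in HFD and 72.2, 57.1 and 71.5 in control libraries. The median ratio was 6.05 (range 3.34 to 7.64), and the lowest ratio came from HFD-AOS library 1, whose Cox8c value was the lowest of the 18 libraries.

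No difference in isoform ratio between groups passed the test. The log2 ratio of each pair was compared in the 6 comparisons of groups, which gives 24 two-sided exact permutation tests of 3 against 3 libraries, for which the smallest possible p is 0.1. The lowest p was 0.2, for Cox7b2 over Cox7b in HFD-AOS against HFD and for Cox8c over Cox8a in AOS against control and in HFD-conFMT against HFD, with all adjusted p-values between 0.982 and 1. The mean log2 ratio of Cox8c to Cox8a was 2.79 ± 0.17 in AOS and 2.56 ± 0.21 in control libraries (SD, n = 3 each), taken as log2(FPKM + 1). This design cannot reach 0.05 for a single pair, so a p above it does not show equal ratios. A ratio within a library shows unequal levels of the 2 genes and not which of them differs.

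**Figure D2:**
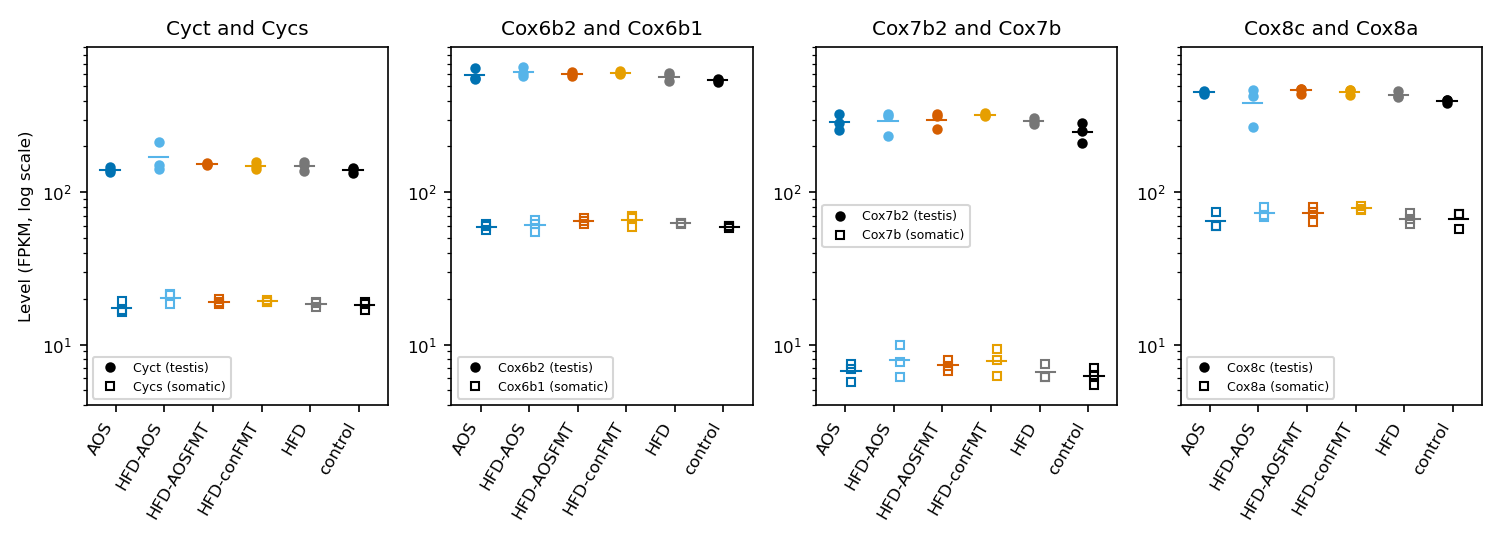
Levels of 4 testis isoforms (filled circles) and their somatic counterparts (open squares) in FPKM on a log axis, by group, with 3 libraries per group and a bar at the group mean. In every group and pair the testis isoform lies well above the somatic one, and the single outlying points of Cyct and Cox8c are both from HFD-AOS library 1.

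Forms of complex IV that mark other tissues were low or at 0. Cox4i2, known from lung, measured 0.38 to 1.2 FPKM and Cox6a2, the heart and skeletal muscle form, 0 to 0.52 FPKM, while the widely used Cox4i1 and Cox6a1 measured 226 to 316 and 306 to 433 FPKM. Cox8b, another heart and muscle form, was listed at 0 in all 18 libraries. Cox7a1, the third muscle form, measured 5.16, 6.33 and 5.42 FPKM in AOS, 4.19, 4.37 and 3.5 in HFD-AOS, 5.22, 5.72 and 3.95 in HFD-AOSFMT, 4.29, 5.96 and 3.94 in HFD-conFMT, 2.74, 2.82 and 6.3 in HFD and 4.44, 3.51 and 5.38 in control libraries. Its HFD values were split, with the 2 lowest and the second highest of the 18 libraries in 1 group. The ubiquitous Cox7a2 measured 164 to 236 FPKM, and Cox7a2l 39.8 to 57.9 FPKM.

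No member passed the test in any comparison of groups in the model of all 18 libraries. Over the 6 groups together, an F test in the same limma model gave 0 of 47 members with an adjusted p under 0.05, against 0.328% of all 13105 genes tested, and 19 members with an unadjusted p under 0.05, against 18% of all genes. The 3 members of smallest p were Uqcrc1 (adjusted p = 0.105), Atp5j, a subunit of the peripheral stalk (adjusted p = 0.106), and Atp5mpl, a small membrane protein of the synthase (adjusted p = 0.116). Atp5j measured 193, 193 and 206 FPKM in AOS, 172, 199 and 199 in HFD-AOS, 206, 209 and 219 in HFD-AOSFMT, 209, 223 and 215 in HFD-conFMT, 196, 195 and 184 in HFD and 178, 182 and 174 in control libraries. Its control values were the lowest of any group apart from HFD-AOS library 1, and its HFD-conFMT values among the highest. Without HFD-AOS library 1, the F test gave Atp5j, Atp5mpl and Cox5a adjusted p-values of 0.0297, 0.0424 and 0.0477. Without HFD-AOS library 3, it gave Cox4i1 and Uqcrc1 0.0436 and 0.0466. Over all single libraries left out, the F test called 2 to 146 genes, against 43 with all 18 libraries. The mean of HFD-conFMT was the highest of the 6 group means for 21 of 47 members (18.3% of all genes), and the control mean was the lowest for 22 (17.2% of all genes).

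**Figure D3:**
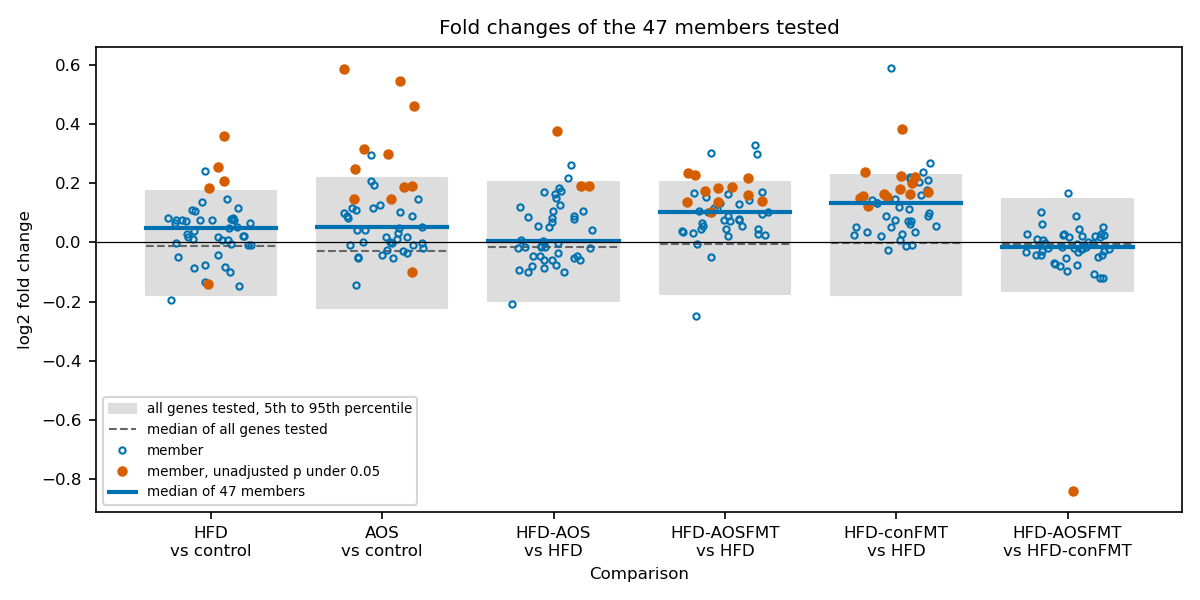
Log2 fold changes of the 47 members tested (points, orange where the unadjusted p was under 0.05) in 6 comparisons, with the member median (blue bar), the median of all 13105 genes (dashed) and the 5th to 95th percentile of all genes (grey). The member medians lie above 0 most clearly in both FMT groups against HFD, at 0.10 and 0.13.

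Between HFD and control, the differences were small and none passed the test. Cox5b, a zinc-binding complex IV subunit on the matrix side, measured 166, 161 and 169.8 FPKM in HFD libraries, against 151, 131 and 135 FPKM in control libraries. Those values did not overlap (log2 fold change 0.25 ± 0.086 (SE), adjusted p = 0.652). Uqcrq measured 58.7, 38.2 and 51.9 FPKM in HFD libraries, against 35, 42.9 and 36.1 FPKM in control libraries, with HFD library 2 inside the control range (log2 fold change 0.36 ± 0.14 (SE), adjusted p = 0.691), and without HFD library 1 the log2 fold change of Uqcrq was 0.23. Sdhd measured 19.6, 20.5 and 19.8 FPKM in HFD libraries, against 20.6, 22.4 and 23.5 FPKM in control libraries, all HFD values below all control values by a small step (log2 fold change -0.14 ± 0.060 (SE), adjusted p = 0.716). Of the 47 members tested, 33 had a fold change above 0, where 45.2% of all genes did, and their median log2 fold change was 0.048, against -0.011 over all genes. No member had an adjusted p under 0.05 (limma, 0% of all genes did). At an unadjusted p under 0.05, 4 members lay higher and 1 lower, where 2.91% and 3.84% of all genes did. The 3 HFD and 3 control values did not overlap for 8 members on the higher side and 1 on the lower, against 5.17% and 7.35% of all genes. On a TPM scale, 26 of 48 members lay above 0, with a median of 0.014 for members and -0.039 for all genes, and with quantile normalization 27 of 47 did, with a member median of 0.027. By complex, the members above 0 were 2 of 4 in complex II, 6 of 9 in complex III, 13 of 15 in complex IV and 10 of 17 in complex V. The other members of smallest p were Atp5mpl (log2 fold change 0.18 ± 0.075 (SE), adjusted p = 0.713) and, on the lower side, Atp5g2 (log2 fold change -0.13 ± 0.083 (SE), adjusted p = 0.783) and Atp5g1 (log2 fold change -0.083 ± 0.058 (SE), adjusted p = 0.799). The count of 5 at an unadjusted p under 0.05 was 2 without HFD library 1, 2 without control library 2, 2 without control library 3 and 8 without HFD-AOS library 1. No share of all genes is given here for these settings, so the counts do not show a change particular to the members. HFD-AOS library 1 is in neither group but enters the shared estimate of spread of all genes. The 8 members without overlap on the higher side, listed here after their values were seen, were Sdhb, Cox5a, Cox5b, Cox6b1, Cox8c, Atp5j, Atp5l and Atp5mpl.

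In AOS libraries without the diet, several small subunits of complexes III, IV and V had higher values than in control, none past the test. Atp5mpl measured 199.8, 188 and 201 FPKM in AOS libraries, against 166, 142 and 166 FPKM in control libraries, with no overlap (log2 fold change 0.31 ± 0.075 (SE), adjusted p = 0.109). Uqcrq measured 62.8, 51.5 and 53.2 FPKM in AOS libraries, against 35, 42.9 and 36.1 FPKM in control libraries, again with no overlap (log2 fold change 0.54 ± 0.14 (SE), adjusted p = 0.118). Cox7c, a small membrane subunit of complex IV, measured 412, 366 and 389.6 FPKM in AOS libraries, against 329, 302 and 317 FPKM in control libraries, also with no overlap (log2 fold change 0.30 ± 0.083 (SE), adjusted p = 0.133). Of the 47 members tested, 32 had a fold change above 0, where 40.2% of all genes did, and their median log2 fold change was 0.051, against -0.029 over all genes. No member had an adjusted p under 0.05 (limma, 0.0229% of all genes did). At an unadjusted p under 0.05, 10 members lay higher and 1 lower, where 5.58% and 10.2% of all genes did. The 3 AOS and 3 control values did not overlap for 15 members on the higher side and 1 on the lower, against 7.96% and 15.2% of all genes. By complex, the members above 0 were 3 of 4 in complex II, 6 of 9 in complex III, 13 of 15 in complex IV and 10 of 17 in complex V, while both cytochromes c had fold changes below 0. Of the members below 0, 7 were in complex V and 8 elsewhere, and Atp5a1 had the smallest p. It measured 100.01, 105 and 100.5 FPKM in AOS libraries, against 109, 104 and 115 FPKM in control libraries, with overlap (log2 fold change -0.099 ± 0.043 (SE), adjusted p = 0.281). Atp5g2 (log2 fold change -0.14 ± 0.083 (SE), adjusted p = 0.416) and Atp5b (log2 fold change -0.031 ± 0.034 (SE), adjusted p = 0.697) were the next by p. Atp5g2 measured 48.99, 50.8 and 47.01 FPKM in AOS libraries, against 55.4, 52.7 and 54.2 FPKM in control libraries, and was the 1 member without overlap on the lower side. The 10 members higher at an unadjusted p under 0.05, listed after their values were seen, were Uqcrq and Uqcr11 of complex III, Cox4i1, Cox5a, Cox5b, Cox7a2 and Cox7c of complex IV, and Atp5j, Atp5k and Atp5mpl of complex V. With Atp5a1 the count was 11, which was 7 without AOS library 1, 7 without AOS library 3, 7 without control library 2 and 6 without control library 3. Without the shares of all genes at those settings, these counts do not show a change particular to the members. Without HFD-AOS library 1, which is in neither group but in the shared estimate of spread, Atp5mpl and Cox5a had an adjusted p of 0.0468 each. Genes called in this comparison ran from 0 to 44 over single libraries left out, against 3 with all 18 libraries.

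Between HFD-AOS and HFD, about as many members lay above 0 as below, and none passed the test. Cox6a1, the widely used form of a regulatory subunit of complex IV, measured 433, 365 and 353 FPKM in HFD-AOS libraries, against 351, 324 and 330.2 FPKM in HFD libraries, with no overlap (log2 fold change 0.19 ± 0.068 (SE), adjusted p = 0.297). Without HFD-AOS library 1 that log2 fold change was 0.10. Uqcr11 measured 62.2, 58.2 and 88.9 FPKM in HFD-AOS libraries, against 60.2, 46.5 and 51.8 FPKM in HFD libraries, with overlap (log2 fold change 0.38 ± 0.16 (SE), adjusted p = 0.36). Without HFD-AOS library 3 the log2 fold change of Uqcr11 was 0.19, and over all single libraries left out it ran up to 0.49. Cox7c measured 339.9, 399.9 and 434 FPKM in HFD-AOS libraries, against 355, 321 and 348 FPKM in HFD libraries, with HFD-AOS library 1 inside the HFD range (log2 fold change 0.19 ± 0.083 (SE), adjusted p = 0.366). For Cox7c the log2 fold change was 0.29 without HFD-AOS library 1 and 0.11 without HFD-AOS library 3. Of the 47 members tested, 25 had a fold change above 0, where 43.9% of all genes did, and their median log2 fold change was 0.0050, against -0.017 over all genes. No member had an adjusted p under 0.05 (limma, 0% of all genes did). At an unadjusted p under 0.05, 3 members lay higher and 0 lower, where 4.89% and 7.81% of all genes did. The 3 HFD-AOS and 3 HFD values did not overlap for 1 member on the higher side and 0 on the lower, against 4.9% and 8.49% of all genes. The member median lay below 0 on a TPM scale (-0.039), with quantile normalization (-0.011) and with the length trend removed (-0.0077). By complex, the members above 0 were 1 of 4 in complex II, 4 of 9 in complex III, 11 of 15 in complex IV and 7 of 17 in complex V. On the lower side, Cox8c measured 269, 429 and 466 FPKM in HFD-AOS libraries, against 426, 465 and 419.8 FPKM in HFD libraries, a gap made by HFD-AOS library 1 (log2 fold change -0.21 ± 0.13 (SE), adjusted p = 0.534). Without that library its log2 fold change was 0.035. Atp5a1 (log2 fold change -0.077 ± 0.043 (SE), adjusted p = 0.472) and Uqcrc2 (log2 fold change -0.093 ± 0.058 (SE), adjusted p = 0.526) were the other members of smallest p. Without HFD-AOS library 1, the median member log2 fold change was 0.063, and 11 members had an unadjusted p under 0.05, all on the higher side. That count was 6 without HFD-AOS library 2, 7 without HFD-AOS library 3, 6 without HFD library 1 and 1 without HFD library 2. Leaving out a library changes the shared estimate of spread of all genes. The shares of all genes at these settings are not given here, so these counts are not particular to the members.

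The AOS values with and without the diet come from groups that share no libraries. Of 47 members, 24 had the same sign in both comparisons, against 60.7% of all genes. Uqcr11 and Cox7c, 2 members, had an unadjusted p under 0.05 on the higher side in both. The difference between the AOS effects was tested as an interaction, and no member had an adjusted p under 0.05 (0% of all genes did). 3 members at an unadjusted p under 0.05, Atp5mpl, Atp5j and Cox8c, had a lower log2 fold change on the diet (3.24% of all genes) and 0 a higher one (3.62%). That count of 3 ran from 0 to 11 when single libraries were left out, with 11 without HFD-AOS library 3 and 0 without AOS library 3, HFD-AOSFMT library 1 or HFD-conFMT library 2. Shares of all genes with these libraries left out are not given here. The difference for Atp5mpl was -0.23 ± 0.11 on the log2 scale (SE, adjusted p = 0.723). Without HFD-AOS library 1 it was -0.15.

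In both FMT groups, most members lay above HFD by a small amount. Both comparisons use the same 3 HFD libraries, so their values are given side by side and are not independent. Sdhd measured 23.7, 24.1 and 23.2 FPKM in HFD-AOSFMT and 23.1, 24.8 and 23.4 FPKM in HFD-conFMT libraries, against 19.6, 20.5 and 19.8 FPKM in HFD libraries. Neither FMT group overlapped with HFD. The log2 fold change of Sdhd was 0.24 ± 0.060 for HFD-AOSFMT (SE, adjusted p = 0.323) and 0.24 ± 0.060 for HFD-conFMT (SE, adjusted p = 0.171). The HFD values of Sdhd were below those of control as well, and the FMT values lay near the highest of the control values, 20.6, 22.4 and 23.5 FPKM.

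Uqcrc1 measured 181, 183 and 178 FPKM in HFD-AOSFMT and 183, 182 and 184 FPKM in HFD-conFMT libraries, against 173, 162 and 169 FPKM in HFD libraries. All 6 FMT values lay above those of the 12 other libraries. The log2 fold change was 0.10 ± 0.033 for HFD-AOSFMT (SE, adjusted p = 0.381) and 0.12 ± 0.033 for HFD-conFMT (SE, adjusted p = 0.19). Cox4i1, a regulatory subunit of complex IV, measured 299, 299.5 and 287 FPKM in HFD-AOSFMT and 276, 297 and 316 FPKM in HFD-conFMT libraries, against 263, 252 and 247 FPKM in HFD libraries. Neither FMT group overlapped with HFD for Cox4i1. Cyc1, the cytochrome of complex III that passes electrons to cytochrome c, measured 30.1, 28.6 and 31.8 FPKM in HFD-AOSFMT and 30.1, 29.9 and 29.7 FPKM in HFD-conFMT libraries, against 26.9, 28.1 and 25.6 FPKM in HFD libraries. The Rieske protein Uqcrfs1 measured 54.9, 50.4 and 55 FPKM in HFD-AOSFMT and 51.6, 53.8 and 56.9 FPKM in HFD-conFMT libraries, against 47.1, 50.1 and 48.5 FPKM in HFD libraries. Neither overlapped with HFD in either FMT group. Cyc1 and Uqcrfs1 are shown here after their values were seen.

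In HFD-AOSFMT against HFD, Atp5g1, one of the 3 c-subunit genes, was the third member by p. It measured 88.5, 102 and 98.5 FPKM in HFD-AOSFMT libraries, against 88.9, 81.4 and 85.1 FPKM in HFD libraries, with HFD-AOSFMT library 1 inside the HFD range (log2 fold change 0.17 ± 0.058 (SE), adjusted p = 0.384). Of the 47 members tested, 44 had a fold change above 0, where 47.3% of all genes did, and their median log2 fold change was 0.10, against -0.0061 over all genes. No member had an adjusted p under 0.05 (limma, 0.0229% of all genes did). At an unadjusted p under 0.05, 11 members lay higher and 0 lower, where 5.23% and 4.59% of all genes did. The 3 HFD-AOSFMT and 3 HFD values did not overlap for 16 members on the higher side and 0 on the lower, against 8.34% and 8.88% of all genes. By complex, the members above 0 were 4 of 4 in complex II, 8 of 9 in complex III, 15 of 15 in complex IV and 15 of 17 in complex V. The members below 0 were Atp5a1 (log2 fold change -0.051 ± 0.043 (SE), adjusted p = 0.735), Atp5e (log2 fold change -0.25 ± 0.28 (SE), adjusted p = 0.809) and Uqcrc2 (log2 fold change -0.0052 ± 0.058 (SE), adjusted p = 0.987). The Atp5e value rests on HFD-AOSFMT library 2, at 31.3 FPKM, and without it the log2 fold change was 0.24. The 11 members at an unadjusted p under 0.05, listed after their values were seen, were Sdhd of complex II, Uqcrc1, Uqcrh, Cyc1 and Uqcrfs1 of complex III, Cox4i1 and Cox7a2 of complex IV, and Atp5g1, Atp5g2, Atp5d and Atp5j of complex V. The count of 11 at an unadjusted p under 0.05 was 7 without HFD library 2, 7 without HFD library 3, 7 without HFD-AOSFMT library 2 and 7 without HFD-AOSFMT library 3. Shares of all genes with these libraries left out are not given here, so a change particular to the members is not shown. On a TPM scale the count was 5, with no share of all genes given here. With quantile normalization it was 5, all on the higher side, where 4.54% of all genes were. At that setting 42 of 47 members lay above 0, with a median of 0.082, against -0.0091 over all genes.

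In HFD-conFMT against HFD, Uqcr10 was the third member by p and measured 164, 167 and 175 FPKM in HFD-conFMT libraries, against 152, 135 and 147 FPKM in HFD libraries, with no overlap (log2 fold change 0.22 ± 0.070 (SE), adjusted p = 0.242). Of the 47 members tested, 44 had a fold change above 0, where 49.2% of all genes did, and their median log2 fold change was 0.13, against -0.0020 over all genes. No member had an adjusted p under 0.05 (limma, 0% of all genes did). At an unadjusted p under 0.05, 13 members lay higher and 0 lower, where 7% and 5.26% of all genes did. The 3 HFD-conFMT and 3 HFD values did not overlap for 23 members on the higher side and 0 on the lower, against 10.3% and 9.83% of all genes. By complex, the members above 0 were 3 of 4 in complex II, 8 of 9 in complex III, 15 of 15 in complex IV and 16 of 17 in complex V. Those at an unadjusted p under 0.05 were 1 of 4 in complex II, 6 of 9 in complex III, 2 of 15 in complex IV and 4 of 17 in complex V. These 13, listed after their values were seen, were Sdhd of complex II, Uqcrc1, Uqcr10, Uqcr11, Uqcrh, Cyc1 and Uqcrfs1 of complex III, Cox4i1 and Cox7a2 of complex IV, and Atp5g1, Atp5d, Atp5j and Atp5mpl of complex V. The 3 members below 0 had fold changes near 0, namely Sdhc (log2 fold change -0.025 ± 0.072 (SE), adjusted p = 0.92), Atp5a1 (log2 fold change -0.0073 ± 0.043 (SE), adjusted p = 0.963) and Uqcrb (log2 fold change -0.013 ± 0.099 (SE), adjusted p = 0.97). The count of 13 was 8 without HFD library 2, 5 without HFD-conFMT library 3 and 20 without HFD-AOS library 1. For these settings too, no share of all genes is given here, and a change particular to the members is not shown. HFD-AOS library 1 is in neither group but enters the shared estimate of spread of all genes. On a TPM scale the count was 2, with no share of all genes given here. With quantile normalization it was 6, all on the higher side, where 5.54% of all genes were. At that setting 43 of 47 members lay above 0, with a median of 0.097, against -0.012 over all genes.

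Between both kinds of FMT, member values lay close together. Of the 47 members tested, 18 had a fold change above 0, where 47.1% of all genes did, and their median log2 fold change was -0.017, against -0.0053 over all genes. No member had an adjusted p under 0.05 (limma, 0.00763% of all genes did). At an unadjusted p under 0.05, 0 members lay higher and 1 lower, where 1.25% and 1.87% of all genes did. The 3 HFD-AOSFMT and 3 HFD-conFMT values did not overlap for 0 members on the higher side and 2 on the lower, against 4.68% and 5.39% of all genes. The count of 1 at an unadjusted p under 0.05 was 2 without HFD-AOSFMT library 3 and 2 without HFD-conFMT library 1, with no shares of all genes given here for these settings. Both members without overlap were synthase subunits. Atp5e measured 77.1, 31.3 and 100.2 FPKM in HFD-AOSFMT libraries, against 110.4, 103 and 124 FPKM in HFD-conFMT libraries, with HFD-AOSFMT library 2 far below the rest (log2 fold change -0.84 ± 0.28 (SE), adjusted p = 1). Without that library the log2 fold change was -0.35. Atp5a1 measured 108, 108 and 105 FPKM in HFD-AOSFMT libraries, against 109.5, 113 and 108 FPKM in HFD-conFMT libraries, a narrow gap. The next members by p on the lower side were Uqcr10 (log2 fold change -0.12 ± 0.070 (SE), adjusted p = 1) and Atp5o (log2 fold change -0.069 ± 0.060 (SE), adjusted p = 1), and on the higher side Sdhc (log2 fold change 0.090 ± 0.072 (SE), adjusted p = 1), Atp5k (log2 fold change 0.16 ± 0.17 (SE), adjusted p = 1) and Uqcrq (log2 fold change 0.10 ± 0.14 (SE), adjusted p = 1). Over 15 members of complex IV, 12 had fold changes below 0, the lowest at -0.12.

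**Figure D4:**
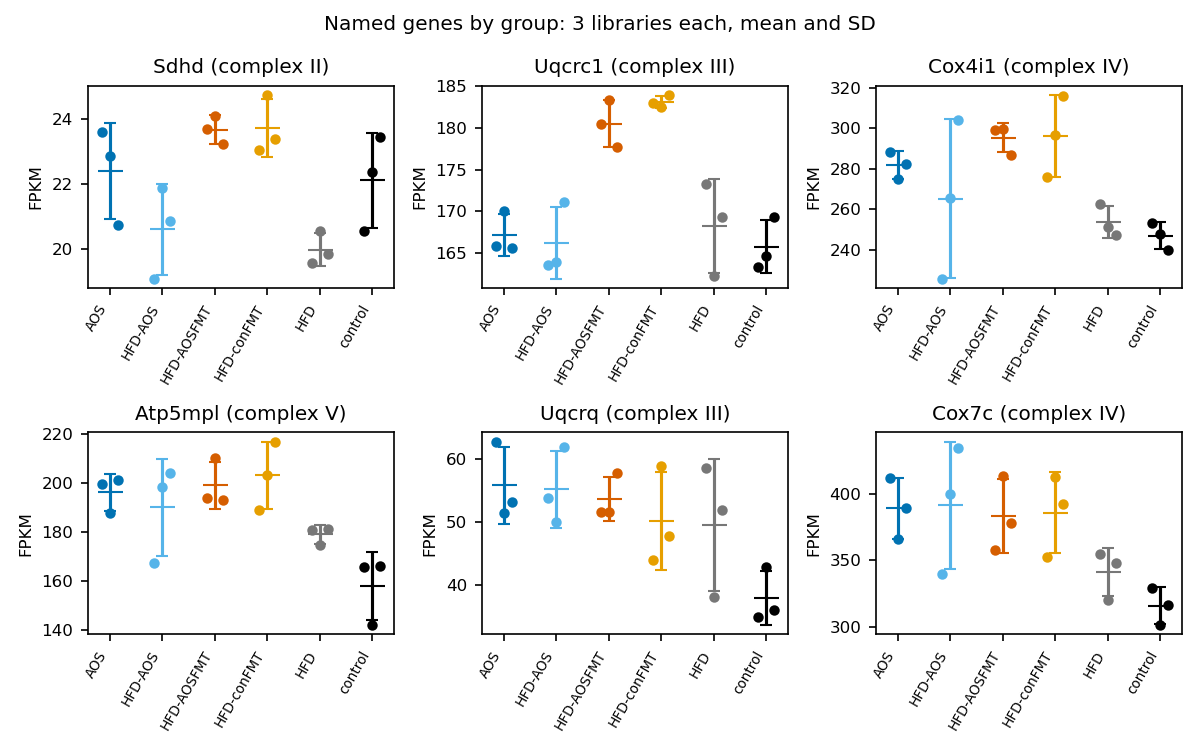
Levels in FPKM of 6 named members by group, with one point per library, a bar at the group mean and error bars of 1 SD (n = 3); the axes do not start at 0. Sdhd and Uqcrc1 are higher in both FMT groups than in HFD with no overlap, while Atp5mpl, Uqcrq and Cox7c are lowest in control.

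**Figure D5:**
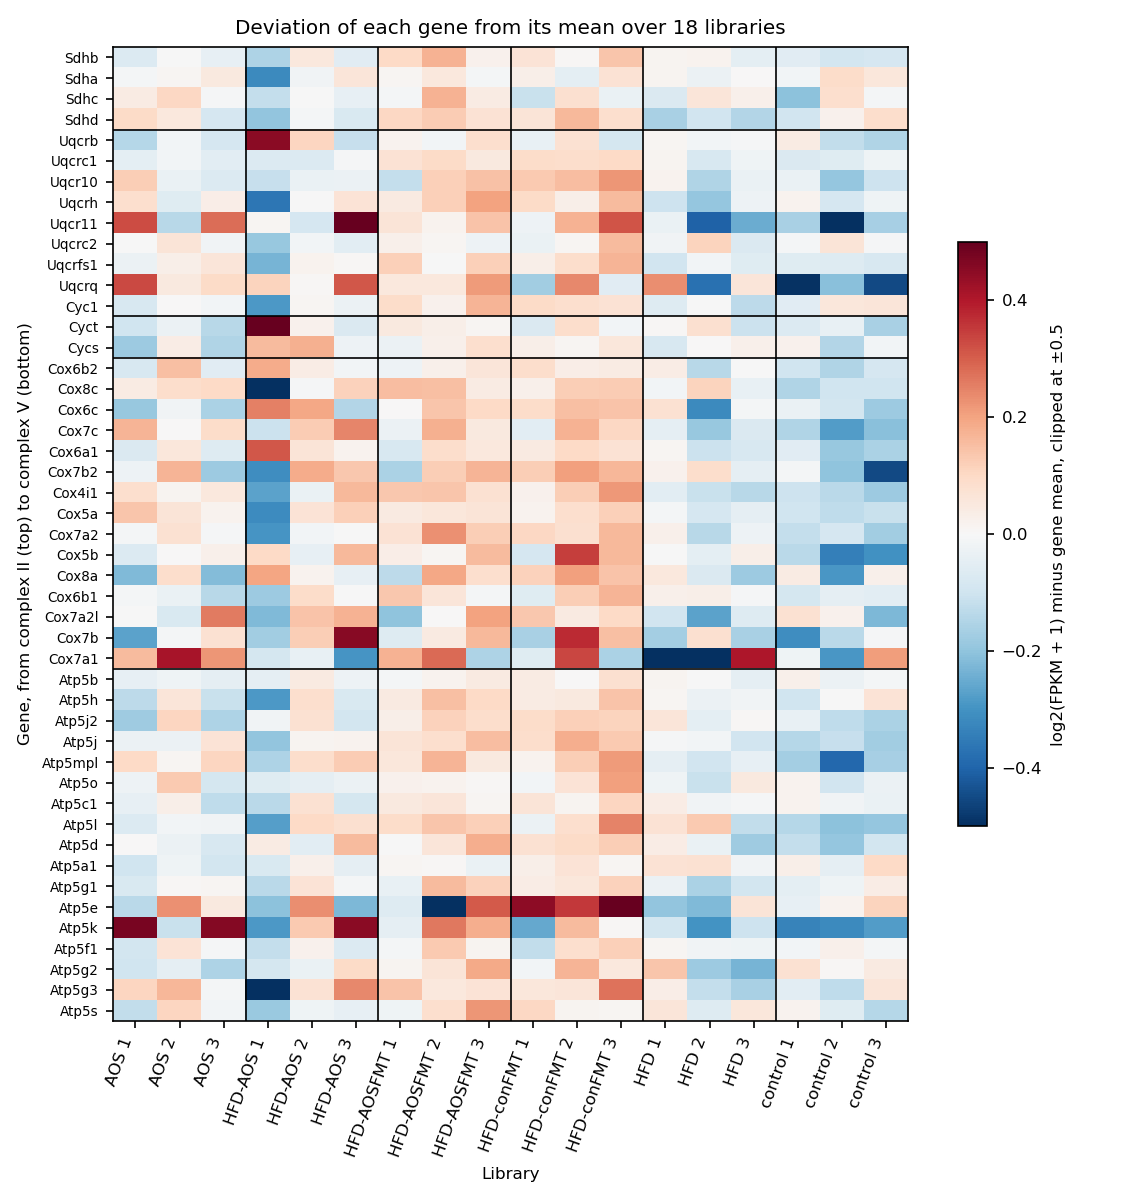
Deviation of each tested member from its mean over the 18 libraries on the log2(FPKM + 1) scale, clipped at ±0.5, with members in rows by complex and libraries in columns by group. HFD-AOS library 1 stands out with many low values beside high Uqcrb and Cyct, and the FMT libraries are mostly above the gene means.

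Fold changes and transcript length were correlated to a differing degree in each comparison. The members have short transcripts, with a median annotated length of 645 bases, against 1989 over 12851 genes. Across those genes, which share libraries and are not independent replicates, the Spearman correlation of fold change with length was -0.26 in AOS against control, -0.26 in HFD-AOSFMT against HFD, -0.28 in HFD-conFMT against HFD and 0.046 in HFD-AOSFMT against HFD-conFMT. Over the 47 members alone it was -0.51, -0.17, -0.27 and 0.040 in the same comparisons, -0.38 in HFD against control and -0.28 in HFD-AOS against HFD. Among 2302 other genes with lengths in the members' middle range, the median log2 fold change was 0.031 in HFD-AOSFMT and 0.047 in HFD-conFMT against HFD, and 63.6% were above 0 in the second. With the trend over length removed from each library, the member medians were 0.068 and 0.076, with 5 and 6 members at an unadjusted p under 0.05, and the median over all genes was -0.00062 and 0.00084.

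Assembly factors, the proteins that build these complexes without being part of them, gave one call. Of 38 such factors listed, 37 were in the table and 34 were tested. In AOS against control, 1 had an adjusted p under 0.05 (limma, 0.0229% of all genes did). This was Higd2a, which takes part in the assembly of complex IV and of supercomplexes. It measured 68.7, 73.3 and 70.8 FPKM in AOS libraries, against 59.1, 52.5 and 53.04 FPKM in control libraries, with no overlap (log2 fold change 0.37 ± 0.056 (SE), adjusted p = 0.0412). Its adjusted p lay between 0.0243 and 0.277 under 27 other settings of the analysis and was under 0.05 in 11 of them. Leaving out any 1 AOS library ended the call, as did leaving out control library 2 or 3, HFD library 3, HFD-AOS library 2, HFD-AOSFMT library 1 or 2, or HFD-conFMT library 1. The log2 fold change stayed between 0.32 and 0.42. Its relative Higd1a measured 17.9, 17.4 and 18.6 FPKM in AOS libraries, against 14.8, 14.8 and 14.98 FPKM in control libraries, again with no overlap (log2 fold change 0.26 ± 0.053 (SE), adjusted p = 0.0809).

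In the other comparisons, 0 of 34 assembly factors passed the test. Uqcc2, an assembly factor of complex III, measured 350.4, 334 and 357 FPKM in HFD-AOSFMT and 326, 362 and 351 FPKM in HFD-conFMT libraries, against 320.4, 285 and 298 FPKM in HFD libraries. HFD-conFMT and HFD-AOSFMT values all lay above those of HFD. Of the 34, 25 had fold changes above 0 in HFD-AOSFMT against HFD (47.3% of all genes) and 26 in HFD-conFMT against HFD (49.2%). In AOS against control 22 did (40.2% of all genes), and in HFD-AOS against HFD 17 (43.9%). The medians of the assembly factors were 0.038, 0.089, 0.044 and -0.00085 in that order. The 8 genes set beside them as testis and somatic counterparts of mitochondrial metabolism and the 5 tested of 8 regulators of respiratory genes, which were Nrf1, Gabpa, Tfam, Esrra and Esrrb, also held 0 calls in each comparison. Among the counterparts, the testis form Pdha2 of pyruvate dehydrogenase averaged 89.1 ± 4.55 FPKM in HFD and 88.3 ± 2.86 FPKM in control libraries, and its X-linked somatic form Pdha1 2.56 ± 0.0954 and 2.73 ± 0.397 FPKM (SD, n = 3 each).

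No marker of the listed cell types passed the test in any comparison, and only the signs, medians and sums of the lists are given here. In whole testis, fewer cells of a type and less RNA per cell cannot be told apart. Of all genes, 40.2% had fold changes above 0 in AOS against control, 45.2% in HFD against control and 43.9% in HFD-AOS against HFD. The share was 47.3% in HFD-AOSFMT against HFD, 49.2% in HFD-conFMT against HFD and 47.1% in HFD-AOSFMT against HFD-conFMT. All 8 elongating spermatid markers had fold changes above 0 in AOS against control (median 0.25) and in HFD-AOSFMT against HFD (0.082), and 7 of 8 in HFD-conFMT against HFD (0.16). The same held for 8 of 8 in HFD against control (0.092) and 7 of 8 in HFD-AOS against HFD (0.15). Their summed level was 57659.6 to 59367 FPKM in AOS, 56557 to 65111 in HFD-AOS, 54804 to 57272 in HFD-AOSFMT, 57851 to 62456 in HFD-conFMT, 43963 to 56967 in HFD and 46495 to 52606 FPKM in control libraries. The 7 macrophage markers summed to 37.6 to 42.2 FPKM in HFD-AOSFMT, 41.2 to 45.6 in HFD-conFMT and 33.6 to 35.95 FPKM in HFD libraries. All 7 had fold changes above 0 in HFD-AOSFMT against HFD (median 0.16) and 6 of 7 in HFD-conFMT against HFD (0.23). The rise was not particular to FMT: all 7 were also above 0 in HFD-AOS against HFD (0.15). In HFD against control, 6 of the 7 were below 0 (-0.18). The 7 adipocyte markers, of which 4 were tested and 2 had fold changes above 0 in HFD-conFMT against HFD, summed to 42.9 to 50.7 FPKM in HFD-conFMT and 22.95 to 29.6 FPKM in HFD libraries. The 8 Leydig markers all had fold changes below 0 in AOS against control, and summed to 2592 to 3534 FPKM in AOS and 3542 to 4057 FPKM in control libraries. All 8 round spermatid markers had fold changes above 0 in HFD against control (median 0.10), and 7 of 8 had fold changes below 0 in each FMT group against HFD (-0.056 in HFD-AOSFMT and -0.039 in HFD-conFMT). They summed to 1649.5 to 1717 FPKM in HFD-AOSFMT, 1708 to 1717 in HFD-conFMT, 1673 to 1788 in HFD and 1606 to 1650.5 FPKM in control libraries. Of 8 spermatocyte markers, 7 had fold changes below 0 in AOS against control (-0.060) and 7 in HFD-AOS against HFD (-0.090). All 5 peritubular markers had fold changes below 0 in AOS against control (-0.11), in HFD-AOSFMT against HFD (-0.22) and in HFD-AOSFMT against HFD-conFMT (-0.28). The 3 blood markers tested of 5 had fold changes above 0 in HFD-AOSFMT (0.41) and in HFD-conFMT (0.54) against HFD, and below 0 in AOS against control (-0.58). The part of these markers in the member values was not tested. Without control library 3 and HFD-conFMT library 2, which carried the epididymal markers, 6 members had an unadjusted p under 0.05 in AOS against control and 8 in HFD-conFMT against HFD, with medians of 0.057 and 0.12. The shares of all genes at that setting are not given here.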

How the data were processed

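Per the labels' protocols, testis tissue was frozen, RNA was taken with Trizol and purified on columns, and 1 ug of total RNA went into each Illumina library. Bowtie 0.12.2 and the mm10 genome are named in the submitters' processing notes. Which counter, annotation and strand setting were used is not given in the sources used here. Per gene and library, the authors deposited FPKM values, as read from the numbers themselves, in 1 table of 20985 rows without a stated unit: library sums differ, and the smallest steps fall with transcript length. Without read counts, no depth and no counting interval can be given.

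Columns were matched to samples by group letters and replicate numbers. Symbols found more than once (3, in 6 rows) were not used. Values were taken as log2(FPKM + 1), so fold changes of low genes are understated. Genes averaging 1 FPKM or more over 18 libraries, 13105 in all, entered 1 limma model (limma 3.58.1, R 4.3.3) with 6 group means, a mean-variance trend and 12 residual degrees of freedom. P-values are two-sided, with Benjamini-Hochberg adjustment over all genes tested and a threshold of 0.05. Isoform ratios were compared by two-sided exact permutation tests (scipy 1.17.1), adjusted over 24 tests. The fit was tested on simulated data. Coordinates and coding sequences come from GENCODE on GRCm38, the assembly of mm10, and promoters from RefSeq. Named in full were the testis and tissue isoforms with their somatic forms, the 3 most abundant members per complex, and the 3 members of smallest p on each side of each comparison and in the F test. Alternatives were other filters and pseudocounts, quantile normalization, array weights, the replicate number as a block, a length adjustment, a TPM scale, and libraries left out. The members and lists were chosen with earlier results of these data known.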

Additional observations from a re-analysis of the deposited data

How the results depend on the processing

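Over all alternatives, 1118 log2 fold changes of named members kept their direction and their side of the threshold while 12 changed sign and 4 passed the threshold. Much of this tally was set in advance. Leaving out a library of neither group cannot change the fold change of a comparison, and no named member started under the threshold. The 24 isoform comparisons cannot pass it. Counts that moved by more than 1.5 times, or between 0 and another value, follow. Shares of all genes are not printed beside these member counts, which therefore do not show a change particular to the members. Medians follow where they moved by 0.046 or more, which is the SD of the library medians of members within groups. The cause was not tested. Genes called numbered 0 in HFD against control, 3 in AOS against control, 0 in HFD-AOS against HFD, 3 in HFD-AOSFMT against HFD, 0 in HFD-conFMT against HFD, 1 in HFD-AOSFMT against HFD-conFMT and 43 in the F test. With no filter on low values they were 0, 2, 26, 3 and 16 in the 5 comparisons from AOS against control to HFD-AOSFMT against HFD-conFMT. With a mean of at least 5 FPKM, 5 were called in HFD-AOSFMT against HFD. Quantile normalization gave 0 in AOS against control, 1 in HFD-AOSFMT against HFD and 12 in the F test, and 3 members at an unadjusted p under 0.05 in HFD against control, 5 in HFD-AOSFMT against HFD, 6 in HFD-conFMT against HFD, 0 in the difference of AOS effects and 12 in the F test. Array weights gave 240 genes in AOS against control, 7 in HFD-AOSFMT against HFD, 9 in HFD-conFMT against HFD and 130 in the F test. They also called 4 members in AOS against control (Atp5mpl, Atp5k, Cox7c and Uqcrq) and 3 in the F test (Uqcrc1, Atp5j and Atp5mpl), left 1 member at an unadjusted p under 0.05 in HFD-AOS against HFD with a median of 0.054, and turned Uqcrc2 to 0.013 in HFD-AOSFMT against HFD. The length adjustment gave 0 genes in AOS against control, 1 in HFD-AOSFMT against HFD and 5 in the F test. It left 5 members at an unadjusted p under 0.05 in HFD-AOSFMT against HFD, 6 in HFD-conFMT against HFD (median 0.076), 5 in the difference of AOS effects and 11 in the F test, and turned Atp5a1 to 0.0065 in HFD-conFMT against HFD. Without control library 3 and HFD-conFMT library 2 together, 0 genes were called in AOS against control, 1 in HFD-AOSFMT against HFD, 1 in HFD-conFMT against HFD and 1 in the F test, and the members at an unadjusted p under 0.05 numbered 3 in HFD against control, 6 in AOS against control, 8 in HFD-conFMT against HFD, 1 in the difference of AOS effects and 10 in the F test. On a TPM scale, chosen after seeing the data, 0 genes were called in AOS against control, 1 in HFD-AOS against HFD and 5 in HFD-AOSFMT against HFD, with 3 members at an unadjusted p under 0.05 in HFD against control, 5 in HFD-AOSFMT against HFD, 2 in HFD-conFMT against HFD, 0 in the difference of AOS effects and 9 in the F test. Of 48 members tested on that scale, 26 lay above 0 in HFD against control (median 0.014), 26 in AOS against control (0.028), 22 in HFD-AOS against HFD (-0.039) and 22 in HFD-AOSFMT against HFD-conFMT (-0.0025).

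With single libraries left out, in 18 settings, members at an unadjusted p under 0.05 ran from 2 to 8 in HFD against control, 6 to 13 in AOS against control, 1 to 11 in HFD-AOS against HFD, 7 to 16 in HFD-AOSFMT against HFD, 5 to 20 in HFD-conFMT against HFD, 1 to 2 in HFD-AOSFMT against HFD-conFMT and 0 to 11 in the difference of AOS effects. Each setting estimates the spread of all genes anew, and the shares of all genes beside these counts are not given here. Genes called ran from 0 to 44 in AOS against control, 0 to 4 in HFD-AOS against HFD, 1 to 6 in HFD-AOSFMT against HFD, 0 to 17 in HFD-conFMT against HFD and 2 to 146 in the F test. Members called ran from 0 to 2 in AOS against control and 0 to 3 in the F test. The member median ran from 0.025 (without control library 2) to 0.062 in HFD against control, 0.043 to 0.084 (without AOS library 1) in AOS against control, -0.019 to 0.063 in HFD-AOS against HFD, -0.036 (without HFD-conFMT library 1) to 0.0054 (without HFD-conFMT library 3) in HFD-AOSFMT against HFD-conFMT and -0.097 to -0.015 in the difference of AOS effects. Members above 0 ran from 12 to 28 in HFD-AOSFMT against HFD-conFMT. The log2 fold changes of 6 members crossed 0: in HFD-conFMT against HFD those of Atp5a1 (-0.038 to 0.0085), Sdhc (-0.076 to 0.020) and Uqcrb (-0.060 to 0.023), in HFD-AOSFMT against HFD those of Uqcrc2 (-0.044 to 0.046) and Atp5e (-0.59 to 0.24), and in HFD-AOS against HFD that of Cox8c (-0.36 to 0.035). Differences of isoform log2 ratio crossed 0 as well, among them Cox7b2 over Cox7b in AOS against control (-0.063 to 0.31) and Cyct over Cycs in HFD-AOS against HFD (-0.11 to 0.15).

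With the replicate number as a block, 1 gene was called in HFD-AOSFMT against HFD and 20 in the F test, and 0 members were called. The numbers did not pair the samples: in each of the 6 comparisons, 0 of 3 same-numbered pairs had a correlation of deviations over 0.1.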
